A study of Homo sapiens with 4 samples.

Results

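The adenosines described here are N6-methyladenosine (m6A) sites that lie in the coding part of a first exon, well before its 3′ end. They were taken from a list of 18789 m6A sites of C643 cells. A site belonged to the set if it lay on the sense strand in the coding sequence of the canonical transcript of a protein-coding gene with at least 2 exons, in exon 1 and more than 100 nt before the last base of that exon. This rule found 363 sites in 133 host genes, which was 1.93% of the list (95% Wilson interval 1.74 to 2.14) and 4.91% (4.44 to 5.42) of the 7400 coding sites in spliced canonical transcripts. Another 131 coding first-exon sites lay within 100 nt of the exon end and were left out.

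C643 is a cell line from an anaplastic thyroid carcinoma. The study mapped m6A in its polyadenylated RNA by miCLIP2, in which fragmented RNA is crosslinked to an anti-m6A antibody with UV light and cDNAs stop at the crosslinked base. A machine-learning classifier, m6Aboost, then decided which peaks at adenosines were m6A. The single group was wild-type C643, with 3 biological replicates, the first of them as 2 technical libraries, and the list pools all 4 libraries. There was no treated, knockout or control group, the list holds no read counts and no values per replicate, and depth per site is unknown. All shares below therefore carry counting error only.

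m6A is placed on nascent RNA by the METTL3-METTL14 complex, mainly at DRACH motifs (D is A, G or T, R is A or G, H is A, C or T, and the A is methylated). In most mRNAs it is rich in long internal exons, around the stop codon and in the 3′ UTR. Exon junction complexes deposited at splice sites are known to keep the writer away from nearby RNA, so short exons carry little m6A. A first exon has a junction at its 3′ side only and usually starts with 5′ UTR, and its coding part often lies in a GC-rich promoter-proximal stretch.

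The densest stretches of the set are shown first. They are its extreme, and 62 of the 133 hosts had 1 site. Each is read 5′ to 3′ on the transcribed strand from GRCh38, with the pentamers of the listed sites in capitals (the m6A is the A in the middle of each) and all other bases in lower case.
TBC1D10B, chr16:30369344-30369464, minus strand: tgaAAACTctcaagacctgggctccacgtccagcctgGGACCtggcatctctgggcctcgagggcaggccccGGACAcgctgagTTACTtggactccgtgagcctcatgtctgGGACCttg
LRFN4, chr11:66857939-66858030, plus strand: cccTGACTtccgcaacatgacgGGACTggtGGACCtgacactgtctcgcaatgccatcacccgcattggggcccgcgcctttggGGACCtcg
PEX6, chr6:42978674-42978768, minus strand: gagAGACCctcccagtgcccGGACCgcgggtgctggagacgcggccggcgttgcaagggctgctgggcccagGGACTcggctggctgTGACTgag
GBA2, chr9:35748509-35748610, minus strand: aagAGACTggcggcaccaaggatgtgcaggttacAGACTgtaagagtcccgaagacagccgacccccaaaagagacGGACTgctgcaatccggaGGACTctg
PPP1R9B, chr17:50149298-50149401, minus strand: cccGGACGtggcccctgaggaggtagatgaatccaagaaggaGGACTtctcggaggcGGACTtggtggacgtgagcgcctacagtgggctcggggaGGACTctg
TBC1D10B carried 5 sites in 121 nt and the other genes 4 sites in 92 to 104 nt. The prediction scores in these stretches ran from 0.577 to 0.846 in TBC1D10B, from 0.559 to 0.785 in LRFN4 and from 0.587 to 0.876 in PEX6. They were higher in GBA2 (0.681 to 0.960) and in PPP1R9B (0.787 to 0.895). The score is the classifier's output for a site, between 0 and 1, and every listed site is above 0.5. Across the whole set, 95 of 230 neighbouring pairs of sites in a host (41.3%, 35.1 to 47.8) were at most 50 nt apart.

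The highest and lowest scores show how wide the range of single sites was, and the 21 nt shown are the window that the classifier reads. The PPP1R18 site had a score of 1, which 25 sites of the whole list reached.
PPP1R18, chr6:30685819-30685839, minus strand, score 1: tgtgctagGGACTgtagaggc
GBA2, chr9:35748504-35748524, minus strand, score 0.960: aatccggaGGACTctgggcag
PCDHGC3, chr5:141477211-141477231, plus strand, score 0.945: ccctctggGGACTgtcatcgc
FBXL14, chr12:1593425-1593445, minus strand, score 0.508: acgctacaGGACTgccagaag
SHB, chr9:38068613-38068633, minus strand, score 0.506: ctaaacaaGTACTtcagcttg
EEF1AKMT4, chr3:184249734-184249754, plus strand, score 0.504: ccggagcgGAACTgcgggtac
PPP1R18 encodes phostensin, an actin-binding regulator of protein phosphatase 1, GBA2 a non-lysosomal glucosylceramidase and PCDHGC3 a gamma-protocadherin of the cell surface. FBXL14 is an F-box protein of a ubiquitin ligase, SHB an SH2-domain adaptor and EEF1AKMT4 a methyltransferase of elongation factor 1A. The same pentamer, GGACT, stood at the 3 highest scores and at 1 of the 3 lowest. Scores of the set had a median of 0.705 (quartiles 0.619 and 0.799), beside 0.721 for coding sites deep inside internal exons, 0.732 for those in last exons and 0.754 for the whole list. Of the 363 sites, 192 scored at least 0.7.

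Long first exons held most of the sites. The first exon of a host gene had a median length of 839 nt (quartiles 482 and 1288, range 155 to 3994), of which 516 nt (338 and 939) were coding. First exons longer than 1000 nt were found in 56 hosts and held 237 of the 363 sites, while first exons of at most 400 nt were found in 20 hosts and held 23 sites. To compare hosts with other expressed genes, transcripts were taken that had a listed site in the 3′ UTR and at least 1 DRACH motif in the same part of the first exon. Of 447 such transcripts, 73 held a member (16.3%, 13.2 to 20.0). The 374 without one had a median first exon of 388.5 nt with 246 coding nt.

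The share of transcripts with a member was higher in each longer class of first-exon coding length. It was 7.20% (4.60 to 11.1) for 18 of 250 transcripts with at most 300 coding nt, 19.7% (13.9 to 27.2) for 27 of 137 with up to 600 nt, 30.6% (18.0 to 46.9) for 11 of 36 with up to 1000 nt and 70.8% (50.8 to 85.1) for 17 of 24 above that. A longer exon also offers more motifs, so the share of single motifs that were listed was computed as well. In first exons of at most 400 nt, 10 of 309 DRACH motifs were listed (3.24%, 1.77 to 5.85), and in those above 1000 nt 124 of 742 were (16.7%, 14.2 to 19.6). The classes between these lay at 8.12% and 8.66%, with overlapping intervals. The longest class came from 58 transcripts, and a few of them gave much of it. PCDHGC3 gave 17 of the 124 listed motifs, and LRFN4, PPP1R18, WDR81 and ARHGEF17 gave 10 each. The share without these genes was not computed, and the intervals treat motifs of a transcript as independent. All these shares are descriptions across transcripts, without a test.

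**Figure D1:**
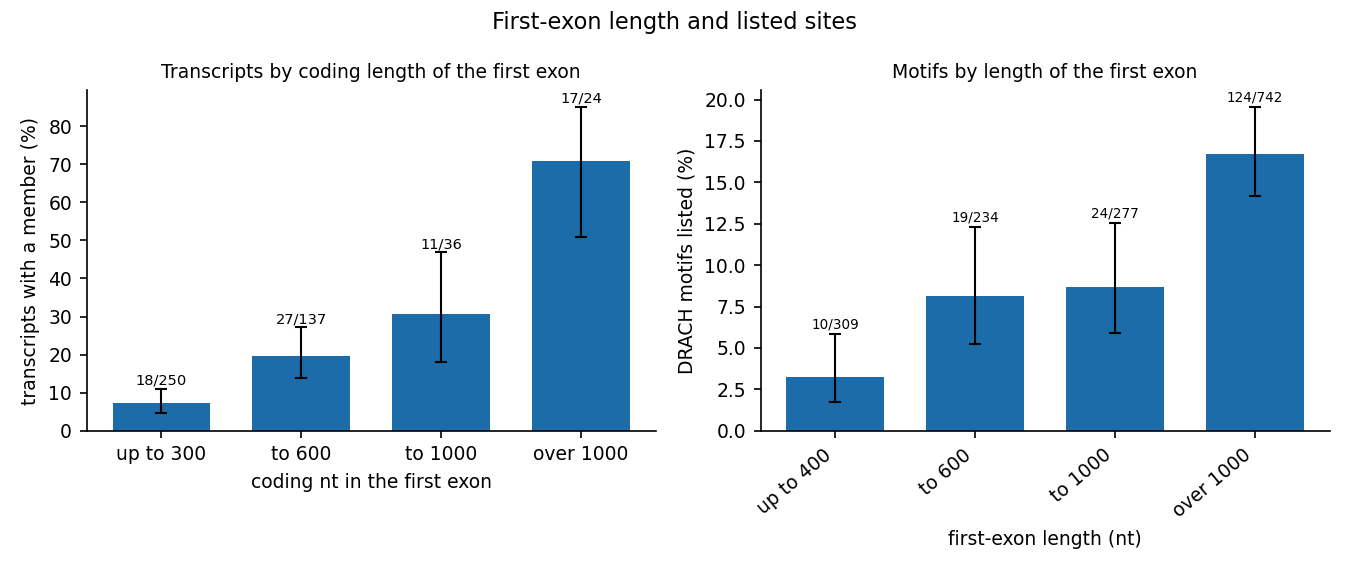
The left panel plots the percentage of transcripts with a listed 3′ UTR site that hold a member, by coding nt in the first exon, and the right panel the percentage of first-exon DRACH motifs that were listed, by first-exon length. Bars are shares with 95% Wilson intervals and counts above, and both panels are lowest for the shortest exons (7.20% and 3.24%) and highest for the longest (70.8% and 16.7%).

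The genes with the longest first exons did not all carry many sites. CELSR1, a cadherin of planar cell polarity, had the longest first exon of all hosts at 3994 nt, yet 1 of its 53 first-exon motifs was listed, 3187 nt from the start codon and with a score of 0.591. WDR81, a WD-repeat protein of endosomal membranes, had 3923 nt and 53 motifs, of which 10 were listed. ARHGEF17, a guanine nucleotide exchange factor, had 3555 nt and 48 motifs, again with 10 listed. At the short end, the 155-nt first exon of PSMB4, a proteasome subunit, carried 1 site with a score of 0.522, and the 217-nt first exon of PSMB5, a catalytic subunit of the same particle, carried 1 with 0.843.

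Sites spread along the whole coding part of the first exon. The distance from the A of the start codon had a median of 357 nt (quartiles 131 and 743, range 4 to 3433). Within 200 nt of the start codon there were 123 sites, 70 of them within 100 nt, while 145 lay beyond 500 nt and 56 beyond 1000 nt. The distance to the last base of the exon had a median of 356 nt (221.5 and 621, range 103 to 3402), and 78 sites lay within 200 nt of it. The stop codon was far from nearly all of them, with 9 sites within 400 nt of the end of the coding sequence. The median score was 0.710 within 200 nt of the start codon, 0.719 from there to 500 nt and 0.702 beyond.

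The sites nearest the start codon were at 4 nt, in the second codon, in ZFYVE19 (score 0.509), in the readthrough gene ENSG00000260272 (0.517) and in PBX2 (0.715). PBX2 is a homeobox partner of HOX proteins. The 3 farthest were all in WDR81, at 3433, 3273 and 3250 nt, with scores of 0.694, 0.751 and 0.745. Just inside the limit of the rule were a site of CLPB, a mitochondrial disaggregase, 103 nt before the exon end (0.614) and a second site of ZFYVE19 at 105 nt (0.830). Just outside were a site of ENSG00000272410 at 100 nt (0.670) and a site of the homeobox gene HOXB9 at 99 nt (0.699). The windows of these last 4 are shown because they lie on both sides of the limit.
CLPB, chr11:72434165-72434185, minus strand: cactcccaGGACAggacagct
ZFYVE19, chr15:40807753-40807773, plus strand: ggggcccaGGACTtggccggc
ENSG00000272410, chr3:10249504-10249524, plus strand: ctgattcgGAACActcggggg
HOXB9, chr17:48625842-48625862, minus strand: cagtttggAAACTtcggcggg
All 4 pentamers fit DRACH.

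Listing was compared with the number of motifs that could have been listed, in transcripts with at least 1 listed 3′ UTR site. The 3′ UTR site was taken as a sign that the transcript was expressed well enough for peaks and was not used in the comparison itself. It does not show that the first exon was covered, and 73 of the 133 hosts had such a site. A 3′ UTR usually lies in the last exon, so entry by such a site can favour last-exon motifs. How far it did so was not tested. In transcripts with a listed 3′ UTR site 8.39% of all exonic DRACH motifs and 5.71% of the coding ones were listed. In the coding first exon more than 100 nt before its end, 177 of 1562 motifs were listed (11.3%, 9.85 to 13.0). Within 100 nt of the end of the coding first exon the share was 4.24% (3.35 to 5.34), and within 100 nt of any junction 2.18% (2.07 to 2.30). Motifs deep inside internal exons were listed in 15.2% (14.4 to 16.1) and those in last exons in 27.4% (26.3 to 28.5).

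Within transcripts, first-exon motifs were listed less often than motifs of the last exon. In 243 transcripts with motifs in both zones, 111 of 909 first-exon motifs (12.2%) and 284 of 1010 last-exon motifs (28.1%) were listed. The Mantel-Haenszel odds ratio with the transcript as stratum was 0.248 (95% interval 0.164 to 0.374, with transcripts as clusters). The two-sided score test gave p = 1.61e-12 (n = 243 transcripts, 149 of them with a listed motif in these zones), or 1.45e-11 after Benjamini-Hochberg adjustment over the 9 tests made. Last exons also hold the stop codon. Without motifs within 400 nt of it the odds ratio was 0.192 (0.0762 to 0.482), over 31 transcripts. When motifs were also matched for local GC content it was 0.340 (0.196 to 0.588, n = 120), nearer to 1. Without motifs within 200 nt of the start codon it was 0.503 (0.286 to 0.884), nearer to 1, and with pentamer as a further stratum 0.134 (0.0523 to 0.342). With GGACT motifs alone it was 0.0769 (0.00968 to 0.611), over 20 transcripts. Over transcripts with any listed site, those of the compared zones included, it was 0.266 (0.191 to 0.370, n = 337).

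Against internal exons the difference was smaller and less firm. In 122 transcripts, 45 of 445 first-exon motifs (10.1%) and 100 of 727 internal-exon motifs (13.8%) were listed. The odds ratio was 0.524 (0.302 to 0.907, n = 122, score test p = 0.0240, adjusted p = 0.0331). Of the 122 transcripts, 53 had a listed motif in these zones. The call was lost when motifs were also matched for local GC content, where the odds ratio was 0.773 (0.370 to 1.61, n = 67 transcripts, p = 0.501). It was also lost in 3 other settings, and the ratio turned to 1.67 (0.277 to 10.0, n = 10, p = 0.579) with GGACT motifs alone. With pentamer as a further stratum it was 0.267 (0.0941 to 0.758).

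Local GC content, taken over the motif and 50 nt on either side of its A, was not distributed alike in the zones. It reached at least 70% for 602 of 1562 first-exon motifs (38.5%, 36.2 to 41.0), for 10.4% (9.67 to 11.1) of internal-exon motifs and for 11.8% (11.0 to 12.6) of last-exon motifs. In this GC-rich class 45 of 602 first-exon motifs were listed (7.48%, 5.63 to 9.86), beside 21.5% (18.7 to 24.6) in internal and 29.9% (26.7 to 33.2) in last exons. Between 60 and 70% GC the shares were 15.7% (13.1 to 18.8) in first and 18.9% (17.6 to 20.3) in internal exons, and between 50 and 60% they were 11.6% in both. Below 50% GC 1 of 60 first-exon motifs (1.67%, 0.295 to 8.86) and 43 of 829 internal-exon motifs (5.19%, 3.87 to 6.91) were listed. In percentage points the gap between first and internal exons was widest in the class with the highest GC content. The listed first-exon sites themselves had a median local GC content of 65.3%, beside 63.4% in internal and 62.4% in last exons.

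**Figure D2:**
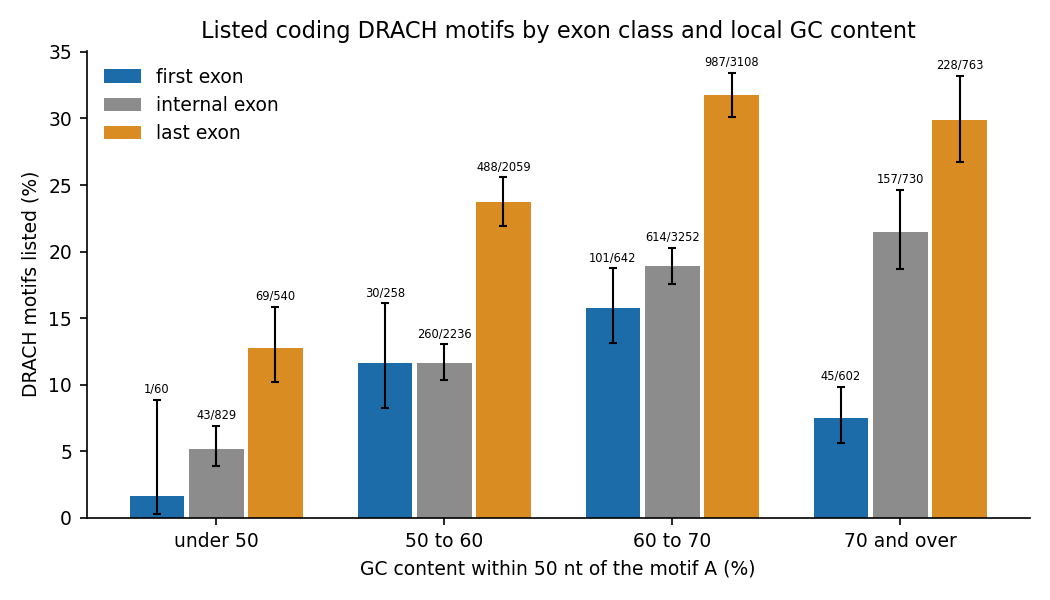
The percentage of coding DRACH motifs that were listed is plotted by GC content within 50 nt of the motif for first, internal and last exons, in transcripts with a listed 3′ UTR site. Bars are shares with 95% Wilson intervals and counts above, and at 70% GC and over the first exon (7.48%) lies below the internal (21.5%) and the last exon (29.9%).

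Motifs close to the start codon were listed less often than motifs farther into the first exon. The share was 6.22% (4.42 to 8.70) for the first 100 nt, 11.2% (7.98 to 15.6) for the next 100 and 20.0% (14.5 to 27.0) between 600 and 1000 nt, and 13.75% (9.96 to 18.7) beyond. Over all transcripts, 61 of 766 motifs within 200 nt were listed (7.96%, 6.25 to 10.1) and 116 of 796 beyond (14.6%, 12.3 to 17.2). In the 109 transcripts with motifs on both sides the odds ratio was 0.539 (0.311 to 0.933, n = 109, score test p = 0.0236, adjusted p = 0.0331). Of these transcripts, 41 had a listed motif in the zone. The call depended on the motifs and hosts used. The odds ratio was 0.863 (0.480 to 1.55, n = 85, p = 0.617) without motifs in an intron, a UTR or near a junction of another coding isoform. Without the 10 hosts with most sites it was 0.587 (0.320 to 1.08, n = 104, p = 0.0751). The call was also lost with pentamer as a further stratum, at 0.715 (0.233 to 2.19, n = 60, p = 0.544), with GGACT motifs alone, at 0.667 (0.0939 to 4.73, n = 10, p = 0.695), and with 200 nt from exon ends, at 0.579 (0.324 to 1.03, n = 74, p = 0.0609). A window of 100 nt in place of 200 gave 0.349 (0.161 to 0.755). GC content moved with the position, and at 70% GC and over 21 of 400 motifs near the start (5.25%, 3.46 to 7.89) and 24 of 202 farther away (11.9%, 8.12 to 17.1) were listed. With GC class and transcript as strata the odds ratio was 0.544 (0.277 to 1.07, n = 92, p = 0.0690).

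Towards the 3′ end of the exon the share of listed motifs was lower in each class below 500 nt. It was 14.2% (10.5 to 19.0) between 300 and 500 nt before the last base, 12.2% (8.85 to 16.5) between 200 and 300 nt, 10.2% (6.67 to 15.2) between 150 and 200 nt and 7.17% (4.82 to 10.5) between 100 and 150 nt. The last 50 nt, outside the set, were at 3.92% (2.86 to 5.36). Within transcripts the order was the other way for the motifs of the set: 29 of 221 motifs at up to 200 nt (13.1%) and 94 of 766 farther away (12.3%) were listed, with an odds ratio of 1.84 (1.03 to 3.29). The interval excluded 1 while the score test did not pass (n = 147 transcripts, 42 of them with a listed motif in the zone, p = 0.0715, adjusted p = 0.0805). Without motifs within 200 nt of the start codon the ratio was 1.15 (0.550 to 2.41), and over transcripts with any listed site 1.17 (0.755 to 1.81).

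**Figure D3:**
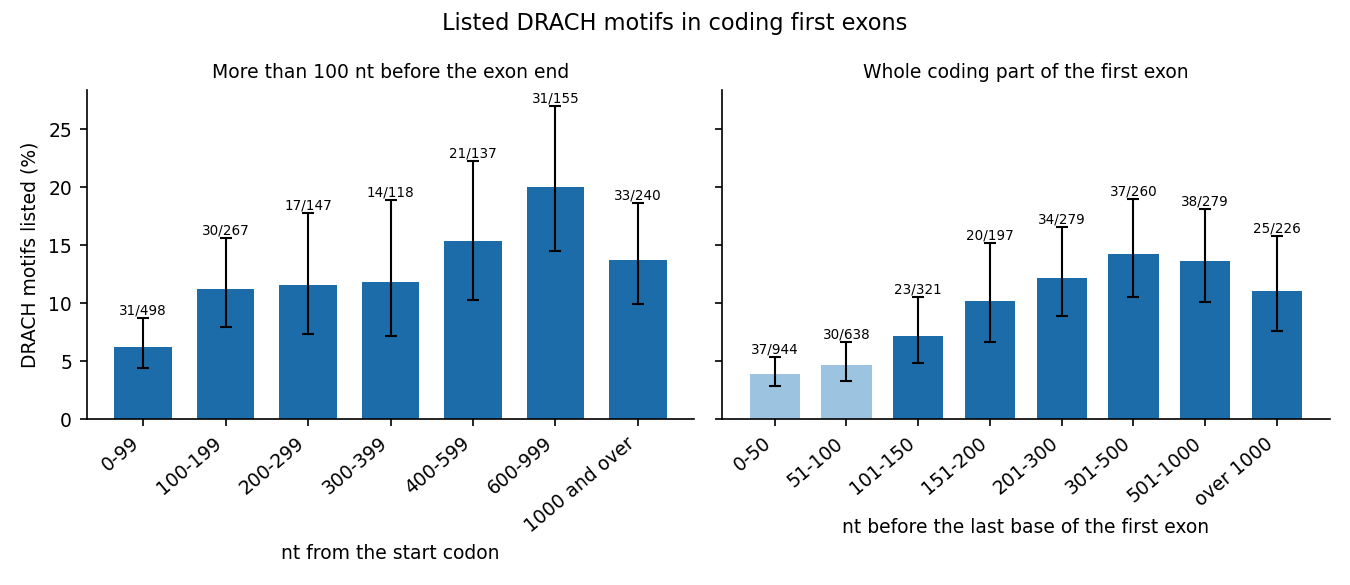
The percentage of coding first-exon DRACH motifs that were listed is plotted by distance from the start codon (left, motifs more than 100 nt before the exon end) and by distance to the last base of the exon (right, pale bars lie outside the set). Bars are shares over transcripts with a listed 3′ UTR site, with 95% Wilson intervals and counts above, and the lowest dark bars are those next to the start codon (6.22%) and between 100 and 150 nt before the exon end (7.17%).

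**Figure D4:**
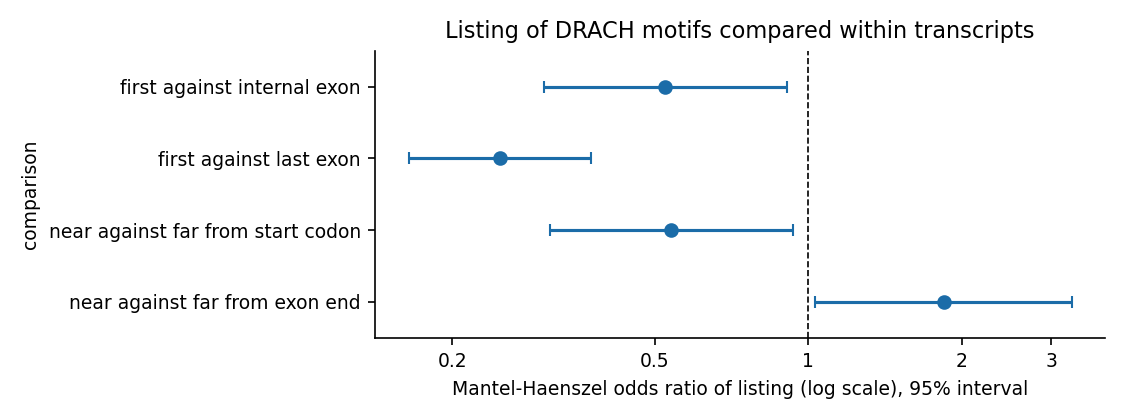
Mantel-Haenszel odds ratios of listing with the transcript as stratum are plotted on a log scale for the 4 comparisons of position, with 95% intervals and a dashed line at 1. The ratio for first against last exon (0.248) lies farthest from 1, and the ratio for the exon end (1.84) lies on the other side of it.

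The motifs of the set were mostly GGAC with any base next. GGACT was the pentamer of 111 sites, GGACA of 53, GGACC of 43 and GGACG, which is not DRACH, of 31. AGACT and GAACT followed with 27 sites each and TGACT with 21. DRACH described 315 sites (86.8%, 82.9 to 89.9), and 48 sites had another pentamer (13.2%, 10.1 to 17.1). Their scores had a median of 0.621, beside 0.720 for DRACH sites. In 1 site, in the decoy receptor gene TNFRSF6B (score 0.571), no C followed the A. The next base is the A of a listed GAACT site (0.815), and whether both are methylated was not tested.

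GGACT made up a larger share of the DRACH sites in first exons than elsewhere in the coding sequence. It was 111 of 315 (35.2%, 30.2 to 40.7), beside 438 of 1738 (25.2%) in internal exons and 552 of 2518 (21.9%) in last exons. The odds ratios were 1.61 and 1.94, with adjusted p = 0.000930 and 2.02e-06 (Fisher's exact test, two-sided). With 1 site per gene and zone, that with the highest score, the same exact test gave 1.83 (p = 0.00296) and 2.15 (p = 8.18e-05). The score draws on the sequence, so this choice was not independent of the pentamer. GGACT was also more frequent among the motifs on offer, at 11.6% (10.1 to 13.3) of first-exon, 7.61% (7.01 to 8.25) of internal-exon and 8.50% (7.85 to 9.21) of last-exon DRACH motifs. Sequence was an input of the classifier, and its part in these shares was not tested.

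The 5 leading pentamers described here had a lower listed share in the first exon than in the last exon. For GGACT the shares were 37.0% (30.3 to 44.3) in first, 48.3% (44.1 to 52.5) in internal and 68.7% (64.7 to 72.5) in last exons. For GGACA they were 17.1%, 26.9% and 44.5%, for GGACC 8.65%, 17.3% and 32.9%, and for GAACT 23.3%, 40.1% and 63.6%. GGACG was listed in 7.38% (4.93 to 10.9) of 298 first-exon occurrences, 12.2% (9.57 to 15.4) in internal and 29.8% (26.1 to 33.7) in last exons.

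Sites with G in place of H, which makes a CpG after the methylated A, were more common among first-exon than among internal-exon sites. They were 33 of 363 (9.09%, 6.55 to 12.5) beside 112 of 1909 in internal exons (5.87%, 4.90 to 7.01), an odds ratio of 1.60 (p = 0.0258, adjusted p = 0.0331, Fisher's exact test). In last exons they were 238 of 2875 (8.28%, 7.33 to 9.34), close to the first-exon share, and this pair was not tested. GGACG, the main pentamer of this kind, was also on offer more often in first exons, relative to DRACH motifs. In transcripts with a listed 3′ UTR site it occurred 298 times beside 1562 DRACH motifs in first exons. In internal exons it occurred 493 times beside 7047. Of these occurrences 7.38% were listed in first and 12.2% in internal exons. Non-DRACH sites as a whole were 13.2% against 8.96% (7.76 to 10.3) in internal exons, with an odds ratio of 1.55 (p = 0.0150, adjusted p = 0.0331, Fisher's exact test). Against 12.4% (11.3 to 13.7) in last exons the odds ratio was 1.07 (p = 0.674, Fisher's exact test). Sites of a gene share their source. With the highest-scoring site per gene and zone alone, neither comparison with internal exons passed (Fisher's exact test, p = 0.173 for G and p = 0.233 for non-DRACH). Non-DRACH sites of the set scored lower than DRACH sites (medians 0.621 and 0.720), so this choice tends to drop them. The part of shared genes alone was not tested.

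In the reading frame the methylated A was most often the middle base of a codon. This held for 217 sites (59.8%, 54.7 to 64.7), with 77 sites (21.2%) at the first and 69 (19.0%) at the third base. Of the DRACH motifs on offer 53.1% (50.7 to 55.6) in first and 55.2% (54.0 to 56.3) in internal exons also had the A at the middle base. The listed share of first-exon motifs was 6.86% (4.93 to 9.48) at the first, 12.9% (10.8 to 15.3) at the middle and 14.7% (10.9 to 19.7) at the third base. The aspartate codon GAC alone held 185 sites (51.0%, 45.8 to 56.1), threonine codons 76 (20.9%), glycine codon GGA 38 (10.5%) and asparagine codon AAC 28 (7.71%). Of the first-exon DRACH motifs in aspartate codons 94 of 636 were listed (14.8%, 12.2 to 17.7), in glycine codons 21 of 111 (18.9%, 12.7 to 27.2) and in threonine codons 33 of 481 (6.86%, 4.93 to 9.48). The part of the pentamer in these shares was not tested.

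A few genes held a large share of the sites. Of the 133 hosts, 62 had 1 site, 71 had at least 2 and 22 had at least 5, and the latter held 172 sites. The 10 hosts with most sites held 105 (28.9%); ITPKC and SNX33, with 7 sites each, tied with the last of these and had a lower sum of scores. In 40 hosts over 50% of the coding sequence lay in exon 1, and these held 182 sites. Hosts with 2 exons numbered 20, with 59 sites, and 38 hosts had at least 10 exons.

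PCDHGC3 led with 18 sites between 26 and 2293 nt from the start codon. It belongs to the gamma-protocadherin cluster, whose genes each have a large variable first exon joined to shared constant exons, and its first exon held 2430 of 2802 coding nt. Of its 50 first-exon motifs 17 were listed (34.0%). Its scores ran from 0.517 to 0.945, and the highest were at 1104 nt (0.945), 2293 nt (0.932) and 26 nt (0.869). All 18 sites lay where at least 1 other coding isoform of the gene has an intron, a UTR or a nearby junction. PCDHGB2 of the same cluster had a first exon of similar coding length, 2421 nt, and 49 motifs, and carried 3 sites with scores from 0.623 to 0.699. By symbol, 3 protocadherin genes had a listed site and a first-exon motif, and 2 of them were hosts. Of their 142 motifs 19 were listed (13.4%), beside 13.4% over all genes with any listed site and such a motif.

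LRFN4, a leucine-rich repeat adhesion protein of synapses, had 15 sites from 199 to 1203 nt in 1349 coding nt. Of its 22 DRACH motifs 10 were listed, and 5 of its 15 sites were not DRACH. PPP1R18 had 11 sites from 189 to 1406 nt, and 10 of its 33 motifs were listed (30.3%). After its site with score 1 the next highest scores were 0.914 at 873 nt and 0.860 at 511 nt. WDR81 had 11 sites in 2 separate groups: 2 sites at 264 and 341 nt, and 9 from 1861 to 3433 nt. All 11 were placed differently by another isoform, and none of its scores exceeded 0.796.

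TBC1D10B, a GTPase-activating protein for Rab GTPases, had its 10 sites packed between 549 and 834 nt of 956 coding nt. Of the 28 DRACH motifs of its zone 9 were listed. ARHGEF17 had 10 sites from 955 to 2824 nt, all DRACH, with the highest score, 0.935, at 1606 nt. In both genes the first part of the coding sequence had no listed site in exon 1.

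PEX6, an ATPase of peroxisomal protein import, and PATZ1, a BTB zinc finger transcription factor, had 8 sites each. Those of PEX6 lay at 387 to 761 nt and those of PATZ1 at 346 to 783 nt. The listed share of their motifs was 46.7% (7 of 15) and 44.4% (8 of 18). ADCK2, a mitochondrial kinase-like protein, had 7 sites, of which 1 lay at 71 nt and the others at 440 to 729 nt. PPP1R9B, the actin-binding phosphatase regulator spinophilin, had 7 sites, 4 of them in the stretch printed above at 1117 to 1210 nt. Its zone held 7 DRACH motifs, of which 5 were listed (71.4%).
These windows hold the site with the highest score in 6 of these genes.
WDR81, chr17:1725214-1725234, plus strand, score 0.796: ggaagtcaGGACTctcctgca
LRFN4, chr11:66858829-66858849, plus strand, score 0.896: cccgagtaGAACTgcgggtgc
ARHGEF17, chr11:73310235-73310255, plus strand, score 0.935: acactcaaGGACTtgacagcc
PEX6, chr6:42978540-42978560, minus strand, score 0.909: tctgggagGGACTggagattc
PATZ1, chr22:31345048-31345068, minus strand, score 0.837: gggacctcGGACTtgggcttc
ADCK2, chr7:140674013-140674033, plus strand, score 0.935: gcgtccagAGACTtggcaggg
GGACT was the pentamer in 4 of these 6, GAACT in LRFN4 and AGACT in ADCK2.

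**Figure D5:**
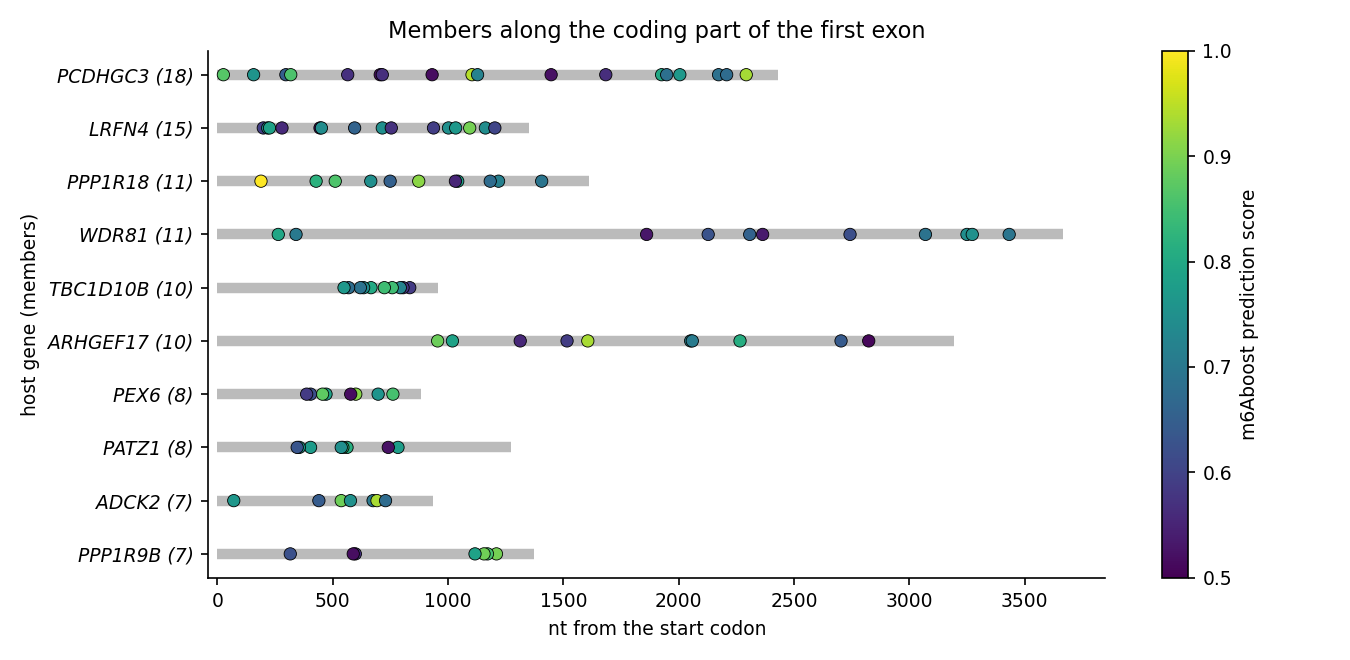
Each line is the coding part of the first exon of 1 of the 10 hosts with most sites, and each point a member at its distance from the start codon in nt, coloured by its m6Aboost prediction score. Sites of PCDHGC3 run along nearly the whole exon, while the 10 sites of TBC1D10B lie between 549 and 834 nt.

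Families with large coding first exons were looked up by symbol among genes with any listed site and a motif in the zone. Of all 622 such genes 126 were hosts (20.3%, 17.3 to 23.6), partly because a member itself counts as a listed site, and 304 of their 2271 motifs were listed (13.4%). Solute carriers had members in 4 of 13 such genes, with 11 sites, and 28.2% of their 39 motifs were listed. The glutamine transporter gene SLC1A5 had 5 sites at 22, 88, 127, 171 and 206 nt, and 5 of its 6 motifs were listed. The zinc transporter gene SLC39A7 had 4 sites at 41 to 245 nt with scores from 0.701 to 0.880, and SLC35C1, a GDP-fucose transporter, had 1 (0.854). TRIM and RNF ubiquitin ligases had members in 6 of 14 genes, with 9 sites and 8 of 50 motifs listed, among them TRIM41 with 3, TRIM8 with 2 and TRIM27 with 1. These families thus had members beside site-bearing relatives without one.

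Among signalling genes, the MAP kinase phosphatase genes DUSP4 and DUSP1 had 2 sites each, and 5 genes of the family qualified. The scores were 0.872 and 0.897 in DUSP4 and 0.655 and 0.705 in DUSP1. TGFB1, which encodes the growth factor TGF-beta 1, had 2 sites at 86 and 102 nt, with scores of 0.833 and 0.769, and both motifs of its zone were listed. The cullin adaptor gene KLHL21 had 5 sites, of which 4 were GGACT, and was the host among the 5 BTB-domain genes that the symbol search found. The search did not take in PATZ1 and ABTB2, which have such a domain too and held 8 and 3 sites. EXT1, a heparan sulfate polymerase, had 3 sites and was the host among the 5 glycosyltransferase and sulfotransferase genes found by symbol, a search that did not take in the host B4GAT1. PBX2 was the host among the 10 homeobox genes found by symbol, and its site was not DRACH, so that 0 of 38 DRACH motifs of these genes were listed.

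Some of the symbol searches found genes with listed sites elsewhere but no host. This was so for 2 forkhead or SOX genes, 2 Krüppel-like or SP genes, 4 G protein-coupled or Frizzled receptor genes and 3 histone lysine methyltransferase or demethylase genes. They offered 4, 7, 18 and 4 motifs in the zone. The receptor search did not take in CELSR1, an adhesion G protein-coupled receptor by structure, which is a host. No WNT or ADAMTS gene qualified. These numbers of motifs are too small for a comparison with the 13.4% listed over all 622 genes with any listed site and a motif in the zone.

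The host transcripts carried m6A outside the first exon too. They held 956 listed sites, of which 304 were in the 3′ UTR, 111 deep in the last exon, 30 deep in internal exons, 64 in the 5′ UTR and 84 coding but close to a junction. A 3′ UTR site was listed in 73 of the 133 hosts. In 22 hosts every listed site of the transcript was a member, as in PATZ1 with 8 and ADCK2 with 7.

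Isoforms limit what a first-exon position means for part of the set. Of the 363 sites, 94 lay in an intron, a UTR or within 100 nt of a junction in another coding transcript of the same gene, and 269 did not, among them 79 in genes with 1 coding transcript. The count of 94 left out isoforms that start downstream of the site and isoforms with the site deep in coding sequence of a later exon. For 6 sites more than 1 host met the rule, 11 sites had a readthrough gene as their only host, and 3 host transcripts had no annotated start codon, so that the first coding base was used.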

How the data were processed

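Polyadenylated RNA of wild-type C643 cells was profiled by miCLIP2 in 4 libraries from 3 biological replicates. The authors aligned reads to GRCh38 with STAR (2.7.3a), kept unique alignments, removed PCR duplicates by molecular identifier with UMI-tools (1.0.0), set C-to-T reads apart, called peaks with PureCLIP and required a peak in more than 1 replicate. m6Aboost classified peaks from 21 nt of sequence, transcript region, relative signal and C-to-T transitions. The deposited score is its prediction, a fraction from 0 to 1, pooled over replicates, and accepted sites alone are listed. Expression, antibody, mappability and classifier inputs therefore shape which motifs are listed, and depth per site is unknown.

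Canonical transcripts came from GENCODE 44, a later release than the authors' release 31 on the same assembly. Positions are 1-based, and distance from the start codon is 0 at its A. Internal-exon sites lay more than 100 nt from both exon ends, last-exon sites more than 100 nt after the exon start. Listing was compared by Mantel-Haenszel odds ratios within transcripts, with intervals and a score test clustered by transcript, and motif shares by Fisher's exact test, at a threshold of 0.05 with Benjamini-Hochberg adjustment over 9 tests. The within-transcript test was tested on simulated data. The simulation used first-exon and last-exon motifs, and the other comparisons were not simulated. Python (3.11.15), pandas (2.3.3) and scipy (1.17.1) were used. The members, gene families and tests were chosen with earlier results of these data known. Named are the 10 hosts with most sites (ties by the higher sum of scores), the 3 highest and lowest scores, the 3 sites nearest to and farthest from the start codon, the 3 longest first exons, 2 sites on each side of the 100-nt limit and up to 3 hosts per family. PSMB4, PSMB5, TNFRSF6B, B4GAT1, ABTB2, ITPKC and SNX33 were named after their values were seen. Alternatives changed score, transcripts, distances, strata and motifs, and the GC strata were added after seeing the data.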

Additional observations from a re-analysis of the deposited data

How the results depend on the processing

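No replicate could be left out, because the list pools them, and samples of a single group left nothing to pair. The comparison of first with last exons and the GGACT shares kept their direction and their side of the threshold in all alternatives run, as did the non-DRACH share against last exons, which missed it throughout. The set had 192 sites at a score of at least 0.7. Values below are odds ratios of results that changed, and the cause was not tested. First against internal exons missed the threshold at 0.565 with 200 nt from exon ends, 0.638 at a score of at least 0.7, 0.549 without motifs within 200 nt of the start codon and 0.773 within GC classes, and reversed to 1.67 with GGACT only. Near against far from the start codon missed it at 0.579 with 200 nt from exon ends, 0.667 with GGACT only, 0.715 with pentamer strata and 0.544 with GC classes. It also missed it at 0.863 without motifs in an intron, a UTR or near a junction of another coding isoform, and at 0.587 without the 10 hosts with most sites. Near against far from the exon end passed it at 2.53 for scores of at least 0.7 and at 1.84 in the plain Cochran-Mantel-Haenszel test, and had no direction, at 1, with GGACT only; it could not be run at 200 nt, where no near motif is left. The share of sites with G after AC missed it at 1.71 with 1 site per gene and zone, 1.50 at 200 nt, 1.46 with the longest transcript and 1.67 at a score of at least 0.7. The non-DRACH share against internal exons missed it at 1.52, 1.38 and 1.57 with 1 site per gene, 200 nt and scores of at least 0.7.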
